A study of Sus scrofa domesticus with 4 samples.

Results

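The genes described here encode the proteins of the cytosolic ribosome, taken as the genes on the array whose symbol starts with RPL or RPS and a digit, with RPLP0, RPLP2 and RPSA, and without the RPS6K kinases and pseudogenes. Names came from the RefSeq transcript accessions of the array design. The rule found 37 genes with 187 probes among 3029 named genes with 6700 probes, out of 43603 probes in all. Of these, 21 genes (113 probes) belong to the large subunit and 16 genes (74 probes) to the small subunit. All 187 probes were well above background in both channels on all 4 arrays, so all 37 genes were tested. RPL7L1, a relative of RPL7, is counted because its symbol matches the rule, and it is named apart below. No probe or transcript sequence was used here.

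Pieces of myometrium (uterine smooth muscle with its vessels) came from the uterine horns of Large White x Polish Landrace gilts aged 7 to 8 months, on days 15 to 16 of gestation. Pieces for both groups were preincubated for 2 h and then cultured for 24 h with orexin A (OXA), a hypothalamic peptide hormone, or without it. The sample labels give a dose of 10 nM, and the series' design text gives 10 µM. Each of 4 dual-colour Agilent arrays, 1 for each of 4 separate experiments, compared RNA of OXA-treated with RNA of non-treated tissue. The tissue holds smooth muscle together with vessels, connective tissue and blood-derived cells, and in such bulk RNA fewer cells of a type and less RNA per cell cannot be told apart. By the channel labels OXA RNA carried Cy5 on arrays 1 and 3, whereas arrays 2 and 4 had it in Cy3. Every log2 ratio below is OXA over non-treated by these labels. In the labelling protocol OXA is always the Cy5 sample. That reading is given for the subunit averages and for some of the genes it moves.

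Ribosomal protein transcripts are among the most abundant of a cell, since every ribosome needs 1 copy of nearly every ribosomal protein. Most of their mRNAs begin with a run of pyrimidines, the TOP motif, through which the kinase complex mTORC1 and the RNA-binding protein LARP1 control their translation and stability. Translation can therefore change without a change in the level that an array measures. Ribosomal protein genes are also widely used as reference genes. Orexin receptors, which are G protein-coupled, are known to act on kinase pathways that include mTORC1.

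Facts of the whole series that touch these genes are few. The share of probes that exceeded background clearly was 39.9% to 49.7% for OXA RNA and 41.5% to 61.1% for non-treated RNA, depending on the array. The smooth muscle markers ACTA2, DES, CNN1, MYLK and SMTN were detected with either RNA on every array. Of the 19505 tested probes, limma called 0 at an adjusted p under 0.05 (0.0%), and 235 (1.20%) had an unadjusted p under 0.05. Arrays 2 and 4 share a dye orientation, yet their log2 ratios correlated at r = -0.38 across tested probes (-0.14 across all probes), and arrays 1 and 2 at r = -0.59. Probes are not independent replicates. The direction of array 2 is therefore not settled by these data, and results that rest on it are given with its sign turned as well.

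No ribosomal protein gene passed the test for an effect of OXA. limma called 0 of 187 probes (lowest adjusted p = 0.998), and 0 of them had an unadjusted p under 0.05, the lowest being 0.145 for a probe of RPL10A. The estimates of the 187 probes ran from -0.38 to 0.50 on the log2 scale, and 109 of them were above 0. Their 95% intervals reached 0.69 to each side at the median probe (0.61 to 1.04), so a change of about this size could not be told from the spread between arrays. An exact sign-flip permutation test (two-sided) on 4 arrays cannot go below p = 0.125, and only RPL5 and RPL7L1, both negative on all 4 arrays, reached it. These are 2 of 37 genes (5.41%), against 3.38% of the 1985 tested named genes. The signs are those of averages over probes, since 8 of 18 probes of RPL5 and 0 of 3 of RPL7L1 were negative on all 4 arrays. None of the 37 genes was positive on all 4 arrays, against 4.69% of tested named genes.

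Both subunits had positive medians on arrays 1 and 4, a value nearer 0 on array 3 and a negative median on array 2. For the 21 large subunit genes the median log2 ratio was 0.41 on array 1, -0.23 on array 2, 0.03 on array 3 and 0.28 on array 4, an average of 0.12 ± 0.28 (SD, n = 4). For the 16 small subunit genes it was 0.67, -0.40, 0.13 and 0.47, an average of 0.22 ± 0.47 (SD, n = 4). The small subunit median lay farther from 0 than the large subunit median on each array, with the same sign, and neither average exceeds the spread between arrays. Over all 1985 tested named genes the median was 0.27, -0.32, 0.04 and 0.33, so the named genes as a whole had the same signs. Over all 19505 tested probes it lay between -0.05 and 0.01 on each array. With array 2 turned, the averages become 0.24 ± 0.16 for the large and 0.42 ± 0.22 for the small subunit (SD, n = 4). With OXA in Cy5 on all arrays they are 0.10 and 0.18. With normexp background correction and loess normalization they are 0.02 and 0.13, and with loess alone 0.06 and 0.15.

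**Figure D1:**
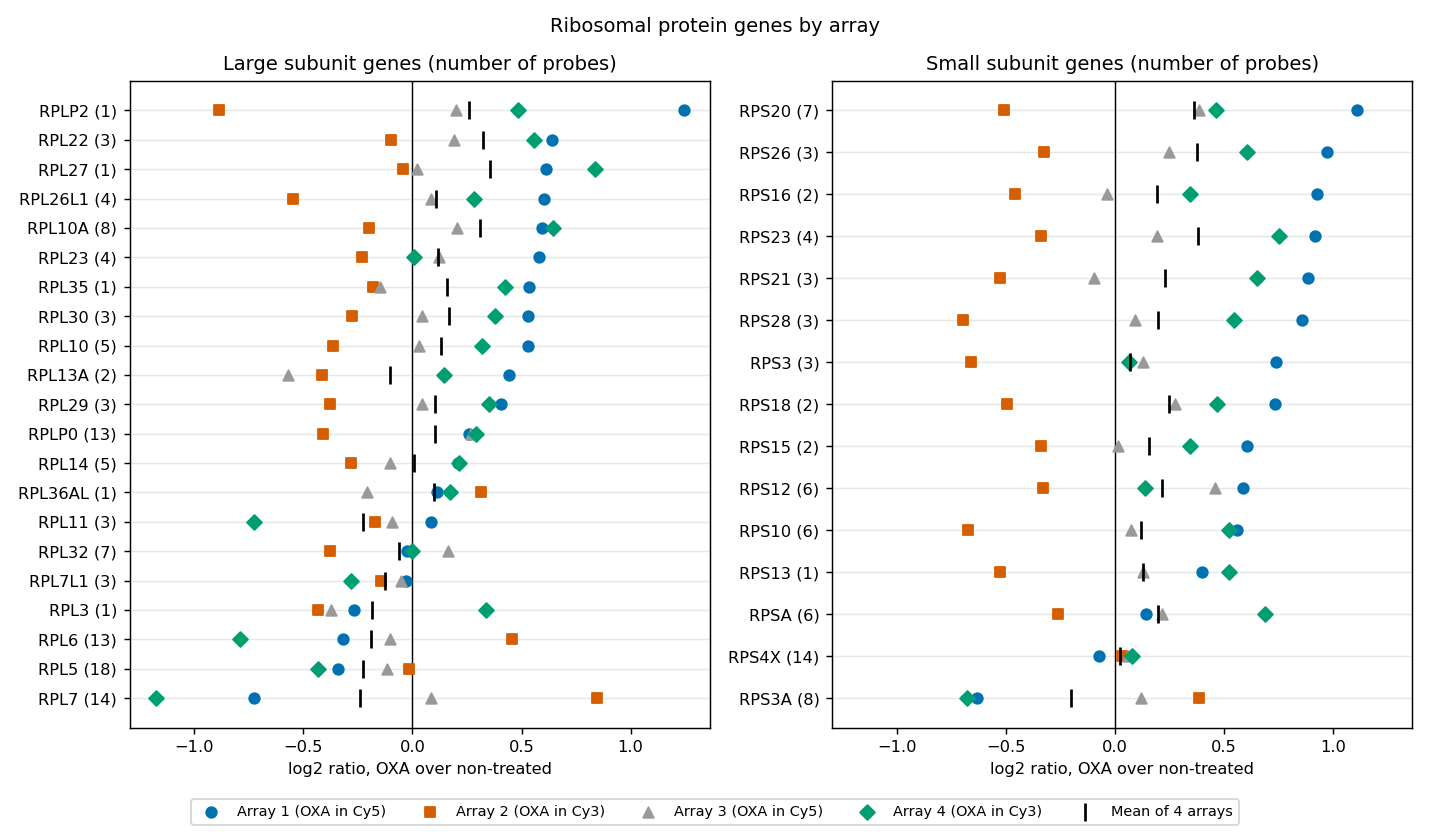
Log2 ratio of OXA over non-treated tissue for the 21 large subunit genes (left) and 15 of the 16 small subunit genes (right), ordered by array 1, with 1 symbol per array, each the mean of the gene's probes, and a black bar for the mean of 4 arrays. Most genes have array 2 left of 0 and arrays 1 and 4 right of it, while RPL7, RPL6 and RPS3A have the reverse order.

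Most genes fell into a large set or a small set with opposite signs on arrays 1, 2 and 4, and 8 of the 37 had neither pattern. The sign pattern was chosen after the values were seen and is a description. Of the 37 genes, 26 were positive on arrays 1 and 4 and negative on array 2 (13 of 21 large and 13 of 16 small subunit genes), a share of 70.3% against 48.3% of tested named genes. The reverse, negative on arrays 1 and 4 and positive on array 2, was found in 3 genes, RPL6, RPL7 and RPS3A, or 8.11% against 12.1%. By single probes, 94 of 187 had the first pattern (50.3% against 31.0% of all tested probes) and 44 the reverse (23.5% against 29.6%). Only 4488 of the 19505 tested probes were named, and the shares over named probes alone were not computed. The comparison by probes is therefore unlike the one by named genes. The size of the first set depends on how the scanner signals are processed. With normexp background correction and loess normalization of the scanner signals, 16 genes had the first pattern (43.2% against 40.0% of named genes) and 4 the reverse (10.8% against 15.0%), with values of array 4 shifted downward. With loess and no background subtraction, 21 genes had the first pattern (56.8% against 40.4%) and 4 the reverse (10.8% against 15.3%). With normexp and loess the large subunit median on array 4 turned negative at -0.08, and that of the small subunit was 0.10, while those of arrays 1 and 2 were 0.40 and -0.29 for the large and 0.66 and -0.45 for the small subunit.

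RPL7, an RNA-binding protein of the large subunit, stood farthest on the reverse side. Its mean log2 ratio over 14 probes was -0.73 on array 1, 0.85 on array 2, 0.08 on array 3 and -1.18 on array 4. Single probes of RPL7 lay between -0.84 and -0.51 on array 1, 0.71 and 0.93 on array 2, -0.15 and 0.24 on array 3, and -1.50 and -0.99 on array 4. The probes of RPL7 thus did not overlap between any pair of the 4 arrays. The matching share among other genes was not computed. All 14 had the reverse pattern, beside 29.6% of all tested probes. The brightest RPL7 probe had a processed signal of 57864 in the OXA and 95112 in the non-treated channel of array 1, 96535 and 50798 on array 2, 70798 and 66350 on array 3, and 57394 and 113743 on array 4. The signal was higher without OXA on arrays 1 and 4 and higher with OXA on array 2. Averaged over arrays, RPL7 was at -0.24 ± 0.89 (SD, n = 4), and its lowest unadjusted p in limma was 0.425 (adjusted p = 0.998). With OXA in Cy5 on all arrays RPL7 averaged -0.08. With array 2 turned, RPL7 averaged -0.67, and all 14 probes had an unadjusted p under 0.05 in limma (lowest adjusted p = 0.106), beside 27.0% of all tested probes. RPL7 was picked after its opposite sign on array 2 was seen, so turning that array brings its values together by construction. Its 14 probes are not independent replicates, and these p-values give no support for an effect.

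RPS3A, which lies on the solvent side of the small subunit near the mRNA exit, had -0.63, 0.39, 0.12 and -0.68 on arrays 1 to 4 (mean of 8 probes). RPS3A was negative on arrays 1 and 4, and all 8 of its probes had the reverse pattern. RPL6, a large subunit protein, had -0.32, 0.46, -0.10 and -0.79 over 13 probes, of which 11 had the reverse pattern. Both had averages within their spread, -0.20 ± 0.54 for RPS3A and -0.19 ± 0.52 for RPL6 (SD, n = 4). Together 33 of the 35 probes of RPL6, RPL7 and RPS3A had the reverse pattern, so these genes account for most of the 44 such probes.

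RPL5 and RPL11 bind a small ribosomal RNA together and, outside the ribosome, can inhibit MDM2, a ubiquitin ligase. RPL5 had -0.34 on array 1, -0.02 on array 2, -0.12 on array 3 and -0.43 on array 4, the mean of 18 probes. Its average was -0.23 ± 0.19 (SD, n = 4), and single probes averaged -0.34 to -0.13. Arrays 2 and 3 lay nearest 0, and the probes of RPL5 on array 2 ran from -0.16 to 0.18. With OXA in Cy5 on all arrays RPL5 averaged -0.0019. The lowest unadjusted p of RPL5 in limma was 0.242 (adjusted p = 0.998). RPL11 had 0.08, -0.17, -0.09 and -0.73 over 3 probes, with array 4 lowest. Its average of -0.23 became 0.22 with OXA in Cy5 on all arrays. Of all 187 probes, 10 were negative on all 4 arrays (5.35%, against 3.76% of tested probes), 8 from RPL5 and 2 from RPL11, and 0 were positive on all 4 (against 3.96%). MDM2 itself had -0.02, -0.08, -0.07 and -0.23 with 1 probe.

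**Figure D2:**
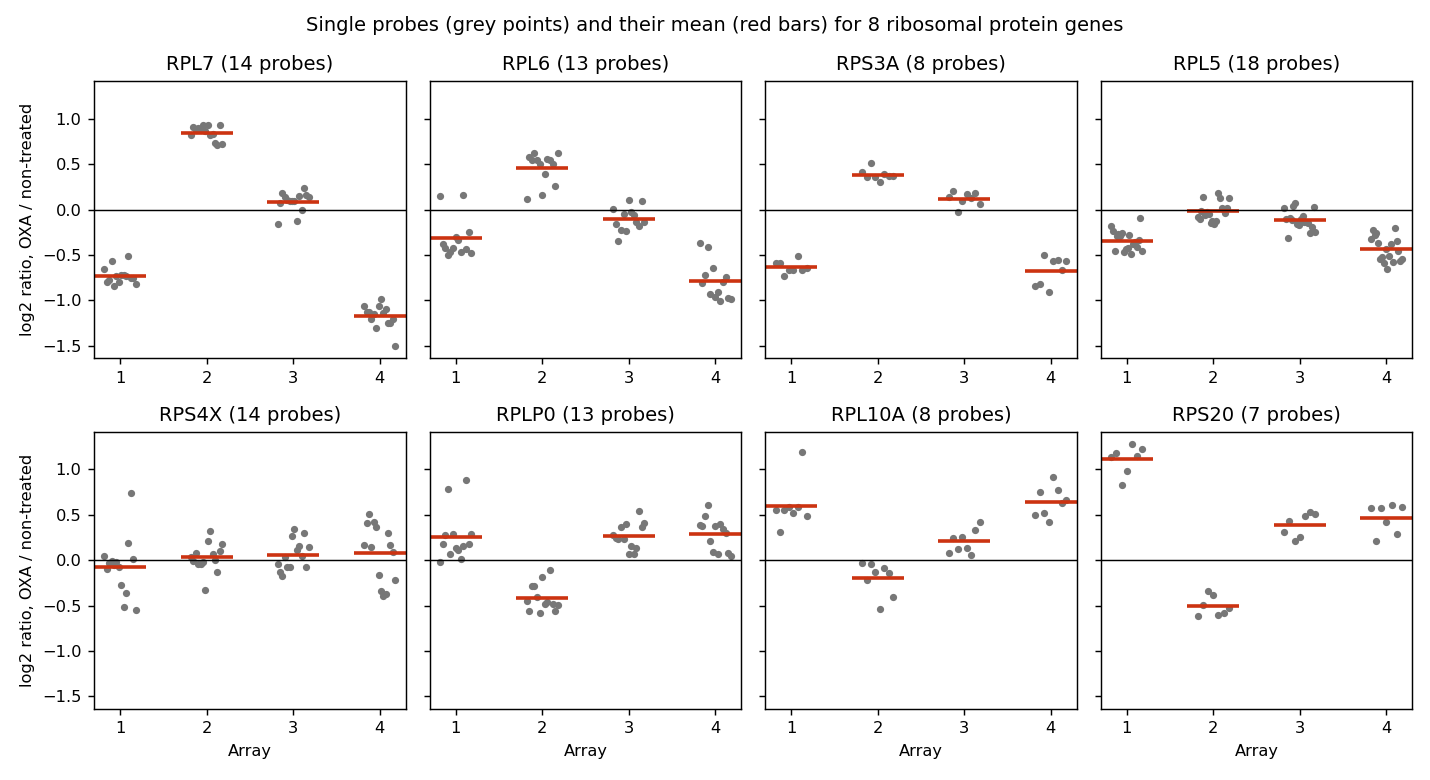
Log2 ratios of single probes (grey points) and their mean (red bars) on each of the 4 arrays for 8 genes with 7 to 18 probes. Probes of RPL7, RPS3A and RPS20 cluster tightly on every array, while those of RPS4X spread to both sides of 0.

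RPS20, a small subunit protein at the head of the subunit, had the majority pattern, with the highest array 1 value among genes with at least 7 probes. Its mean over 7 probes was 1.11 on array 1, -0.51 on array 2, 0.39 on array 3 and 0.47 on array 4. All 7 probes were positive on arrays 1, 3 and 4 and negative on array 2, between 0.82 and 1.28 on array 1 and between -0.62 and -0.34 on array 2. The brightest RPS20 probe had a processed signal of 205962 with OXA and 91191 without on array 1, 108592 and 152988 on array 2, 125878 and 93655 on array 3, and 214548 and 184964 on array 4. Only on array 2 was the signal lower with OXA. The average of RPS20 was 0.36 ± 0.66 (SD, n = 4), or 0.62 with array 2 turned and 0.38 if Cy5 is OXA throughout. With normexp and loess RPS20 was at -0.17 on array 4 and so no longer had the majority pattern.

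The difference between RPS20 and RPL7 on 1 array does not depend on where that array is centred. It was 1.84 on array 1, -1.35 on array 2, 0.30 on array 3 and 1.64 on array 4. With normexp and loess it was 1.88, -1.40, 0.42 and 1.21. Both genes were picked after their values were seen, so these differences describe how far members lay apart on an array and carry no test.

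Other small subunit genes followed RPS20. RPS23, which reaches into the decoding centre, had 0.92, -0.34, 0.19 and 0.75 over 4 probes, and RPS26, which contacts the mRNA upstream of the start codon, had 0.97, -0.32, 0.25 and 0.61 over 3 probes. Both averaged 0.38, with SDs of 0.57 and 0.55 (n = 4), the highest averages of the 37 genes. With OXA in Cy5 on all arrays they averaged 0.17 and 0.23. RPS28, RPS10 and RPS3, which is part of the mRNA entry site, had their array 2 values at -0.69, -0.68 and -0.66, the lowest of the small subunit, and 0.86, 0.56 and 0.74 on array 1. The array 2 value of RPS10 includes dim probes at -1.21 and -0.92, whereas its brightest probe was at -0.46. The average of RPS3, 0.07, became 0.37 with OXA in Cy5 on all arrays. With normexp and loess RPS28 and RPS3 were at -0.06 and -0.27 on array 4, while RPS23, RPS26 and RPS10 stayed positive there. RPSA, which is also known as the precursor of the laminin receptor, had 0.14, -0.26, 0.22 and 0.69 over 6 probes, highest on array 4.

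RPS4X, the X-linked copy of a small subunit gene, had values near 0 on every array. Its mean over 14 probes was -0.07, 0.03, 0.06 and 0.08, an average of 0.02 ± 0.07 (SD, n = 4), the smallest spread between arrays of the 37 genes. Its single probes did not behave alike, since they ran from -0.55 to 0.74 on array 1 and from -0.40 to 0.51 on array 4, with 2 of 14 in the majority pattern and 4 in the reverse. The small spread of the gene's mean is that of an average over probes on both sides of 0.

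In the large subunit, RPLP0 and RPLP2 form the stalk that binds translation factors. RPLP2, with 1 probe, had the widest values of the majority pattern, 1.24 on array 1, -0.89 on array 2, 0.20 on array 3 and 0.48 on array 4. Its average was 0.26 ± 0.88 (SD, n = 4). With normexp and loess RPLP2 was at -0.08 on array 4 and so no longer had that pattern. RPLP0, a common reference gene, had 0.26, -0.41, 0.27 and 0.29 over 13 probes, of which 12 had the majority pattern. Its means on arrays 1, 3 and 4 were nearly the same, and array 2 stood apart. Single probes of RPLP0 ran from -0.02 to 0.88 on array 1, -0.58 to -0.11 on array 2, 0.07 to 0.54 on array 3 and 0.04 to 0.61 on array 4. The nearness of arrays 1, 3 and 4 is thus that of averages over probes. With normexp and loess RPLP0 was at 0.28, -0.47, 0.39 and -0.10, and array 2 no longer stood apart. RPL10A, part of the flexible stalk on the other side of the subunit, had 0.60, -0.20, 0.21 and 0.65, with all 8 probes in the majority pattern and an average of 0.31 ± 0.39 (SD, n = 4). RPL27 (0.61, -0.04, 0.02 and 0.84, 1 probe) and RPL22 (0.64, -0.10, 0.19 and 0.56, 3 probes) had the highest large subunit averages, 0.36 and 0.32, with array 2 close to 0. With OXA in Cy5 on all arrays RPL27 averaged -0.04 and RPL22 0.09.

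RPL10, RPL30, RPL29, RPL23 and RPL35 were also positive on arrays 1 and 4 and negative on array 2, with array 1 values of 0.41 to 0.58 and array 2 values of -0.38 to -0.18. RPL23 was at 0.01 on array 4. With normexp and loess RPL23 and RPL10 were negative there, at -0.46 and -0.01, while RPL30, RPL29 and RPL35 stayed positive. RPL13A, which can leave the ribosome to repress translation after interferon gamma, had 0.44, -0.42, -0.57 and 0.14 over 2 probes, the lowest array 3 value of all members. RPL14 averaged 0.01 ± 0.25 (SD, n = 4). RPL3, which reaches towards the peptidyl transferase centre, differed in being positive only on array 4 (-0.27, -0.43, -0.38 and 0.34, 1 probe). RPL32 averaged -0.06 ± 0.23 (SD, n = 4) with a single clear value, -0.38 on array 2.

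Of the paralogs, RPL26L1, a near copy of RPL26, had 0.60, -0.55, 0.08 and 0.28 over 4 probes, signs shared by the majority. RPL36AL, a copy of RPL36A, had 0.11, 0.31, -0.21 and 0.17 with 1 probe, and RPL7L1 had -0.03, -0.14, -0.05 and -0.28 over 3 probes, without the large values of RPL7. Transcripts of close copies and of processed pseudogenes, which are many for ribosomal proteins, could bind the same probes, and this was not tested.

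Probes of a gene mostly gave similar values on an array, although arrays did not. For the 31 genes with at least 2 probes, the SD between probes on an array had a median of 0.17 (0.04 to 0.31), and the SD between arrays of the gene's mean had a median of 0.41 (0.07 to 0.89). The spread between arrays was the larger of both in 29 of the 31 genes. Across the 37 genes, arrays 1 and 4 correlated at r = 0.74 and arrays 1 and 2 at r = -0.73, with arrays 2 and 4 at -0.70. Array 3 correlated weakly with arrays 1 (0.34), 2 (-0.15) and 4 (0.19). Across the 1948 other tested named genes, the same values were 0.45 for arrays 1 and 4, -0.40 for arrays 1 and 2 and -0.27 for arrays 2 and 4. These are correlations across genes, which are not independent replicates and share the dye normalization of each array.

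**Figure D3:**
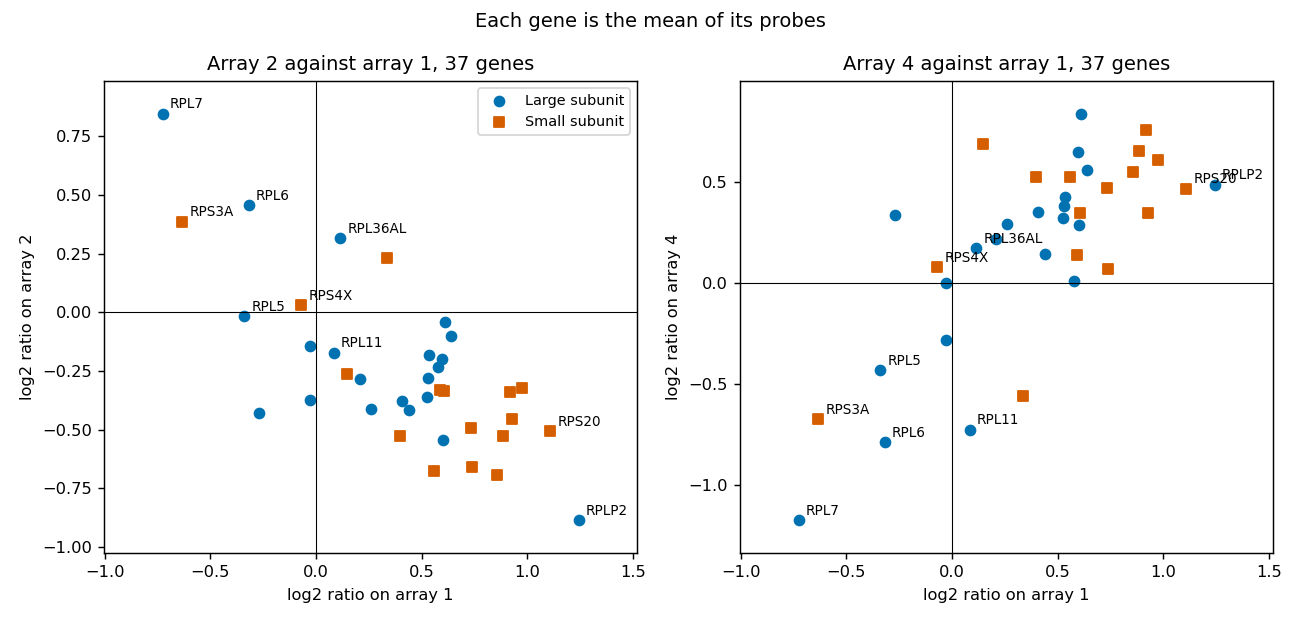
Log2 ratio on array 2 (left) and array 4 (right) against that on array 1 for the 37 genes, each the mean of its probes, with large subunit genes as circles and small subunit genes as squares. RPL7, RPL6 and RPS3A lie at 1 end and RPLP2 and RPS20 at the other, on a falling course against array 2 (r = -0.73) and a rising course against array 4 (r = 0.74).

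When array 2 is turned, 21 of the 37 genes are positive on all 4 arrays (56.8%, against 28.2% of tested named genes) and 1, RPL6, is negative on all 4 (2.70%, against 5.94%). Array 2 was turned after its values were seen, so these counts are a description. limma then calls 0 of 187 probes, and 34 (18.2%, against 27.0% of tested probes) have an unadjusted p under 0.05. Of these 34, 11 are positive, from RPS20, RPS23, RPS28, RPL10A and RPS26, and 23 are negative, from RPL7 (14 probes), RPL6 (8) and RPS3A (1). Without array 2, limma calls 1093 of the tested probes (5.60%) and again 0 of the 187 (lowest adjusted p = 0.128). The ribosomal protein probes then have 10 with an unadjusted p under 0.05 (5.35%, against 19.3%), 9 of them negative, from RPL7, and 1 positive, from RPS20. That fit has a single residual degree of freedom, so the spread of each probe is taken almost wholly from the other probes.

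Brightness was a further property that the ribosomal protein probes shared, with 178 of 187 (95.2%) in the brightest 10% of tested probes. The 1773 other probes of that class had medians of -0.08, 0.08, -0.02 and -0.04 on arrays 1 to 4, opposite in sign to the subunit medians. Macrophage markers, read as signs of another cell type, shared the signs of the majority pattern in 6 of 7 tested genes out of a list of 10 (CD163 had the reverse), with medians of 0.80, -0.87, 2.13 and 0.73. Of all tested named genes 48.3% shared these signs. Their summed processed signal ran from 884 to 7457 in the OXA and from 987 to 4413 in the non-treated channels, and C1QA and C1QC were above background on 3 of 4 arrays in at least 1 channel. The other 3 markers of the list were not named on the array. The part of the macrophage signal in the ribosomal protein values was not tested. Markers of uterine epithelium (4 tested of 8) had medians of -1.46, 2.06, -1.05 and 2.06, negative where OXA was in Cy5 and positive where it was in Cy3. KRT8 among them differed in being positive on array 1 (0.36). The summed signal of these epithelial markers ran from 73.5 to 6446 with OXA and from 178 to 1635 without.

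Genes of the same pathway were read from lists of translation factors, ribosome biogenesis factors and mTORC1 components, and limma called 0 of their genes (0 of 7, 0 of 10 and 0 of 9 tested). All 7 mitochondrial ribosomal protein genes, whose products build the separate ribosome of mitochondria, had the majority pattern, as did 48.3% of all tested named genes, with medians of 0.58, -0.43, 0.02 and 0.51. MRPS18B among them had 0.60, -0.87, 0.58 and 0.91 with 1 probe. RACK1, which encodes a small subunit protein under another symbol, had the majority pattern as well (0.23, -0.40, 0.01 and 0.50, 6 probes). Of 10 ribosome biogenesis genes, 7 had it, with medians of 0.49, -0.44, 0.03 and 0.62, among them the pseudouridine synthase DKC1 (0.86, -0.49, 0.14 and 1.20) and the transcription factor MYC (0.76, -0.24, -0.13 and 0.35). With normexp and loess the counts were again 7 of 7, 7 of 10 and, for the macrophage markers, 6 of 7.

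The translation factors differed from one another. EIF4A2, an RNA helicase of initiation, had the reverse pattern of RPL7 with larger values (-1.07, 1.00, -0.33 and -1.55, 13 probes), and EIF4G1, the initiation scaffold, was positive throughout (1.40, 0.04, 0.18 and 1.47, 1 probe). EEF1A1, the elongation factor that delivers aminoacyl-tRNA and a TOP transcript, was negative on all 4 arrays (-0.56, -0.43, -0.36 and -0.52, 18 probes), an average of -0.47 ± 0.09 (SD, n = 4, limma adjusted p = 0.998). The average of EEF1A1 was -0.25 with array 2 turned and 0.01 when Cy5 is read as OXA throughout. HNRNPA1, another TOP transcript, was negative on all 4 arrays as well (-0.31 ± 0.08, SD, n = 4), and averaged -0.14 and -0.03 under these readings. No ribosomal protein gene had values of this size and sign on all 4 arrays. In the mTORC1 list, DDIT4, an inhibitor of mTORC1, had 1.00, 0.95, 0.90 and 0.90 over 4 probes, beside medians of the 9 listed genes of 0.11, -0.40, -0.03 and 0.53. Its average of 0.94 became 0.46 with array 2 turned and 0.01 if Cy5 is OXA throughout. PDCD4, a repressor of translation that S6 kinase targets, had -0.83, 0.21, -0.03 and -1.63 with 1 probe.

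**Figure D4:**
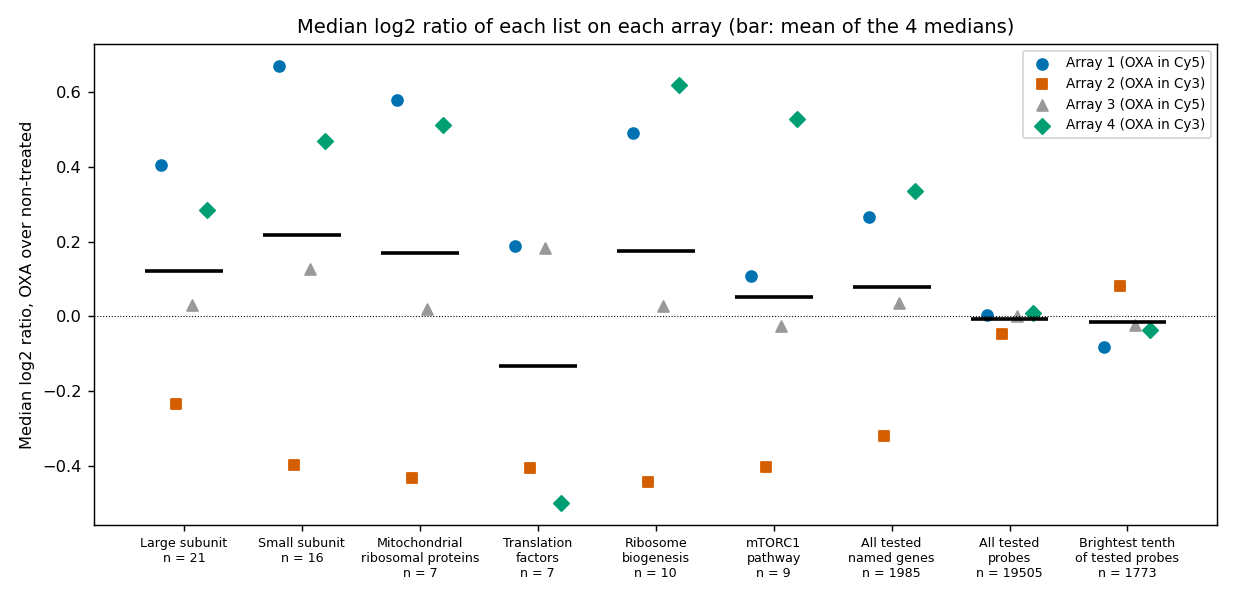
Median log2 ratio on each of the 4 arrays (symbols) and the mean of these medians (black bar) for both subunits, 4 related gene lists, all tested named genes, all tested probes and the brightest 10% of tested probes without ribosomal protein probes. Array 2 is below 0 and arrays 1 and 4 above 0 for both subunits (array 4 of the large subunit turns to -0.08 with normexp and loess) and for the named genes as a whole, while all tested probes lie between -0.05 and 0.01.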

How the data were processed

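The deposited value table holds log2 ratios made by the authors from Agilent Feature Extraction 10.7.3.1 output, per the file headers and labels. On tested probes it followed the scanner's log10 ratio, deposited with the arrays, with slopes of 1 on arrays 1 and 3 and -1 on arrays 2 and 4, and at least 99.86% of probes on each array lay within 0.001 (log2) once scaled. It therefore runs as OXA over non-treated. Its scale and direction were found this way, its column medians were 0.10, 0.10, -0.19 and 0.07, and no further centring was found. Spot intensity (medians and processed signals) and spot flags (other) came from the deposited scanner files. All 4 arrays share 1 slide, so no slide batch was fitted.

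Tested probes had Agilent's flag for a signal clearly over background on 3 or more of the 4 arrays, in either group's channel. limma 3.58.1 (R 4.3.3) was fitted to all tested probes with a term for OXA and a term for dye, with Benjamini-Hochberg adjustment over all of them. A gene's value is the mean of its tested probes. The fit was tested on simulated data. Accessions were matched without versions to RefSeq names of Sscrofa11.1, which left 36903 probes unnamed. Named genes were the extremes of each subunit by mean and by p, a fixed set of members with known roles, and up to 3 genes per related list by p. Other members and the marker genes are given by value only. Members, lists and alternatives, among them turning array 2, were chosen with earlier results of these data known. Separate animals are stated for the experiments, not outright for each array's channels. The number of arrays limits the precision. Values of some single genes are not reported here, and counts and medians include them.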

Additional observations from a re-analysis of the deposited data

Results flagged for a closer look

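In 1 gene a single array lay so far from the rest that Dixon's ratio exceeded its 95% critical value. RPLP0, as the mean of 13 probes, was -0.411 on array 2 and 0.26 to 0.29 on arrays 1, 3 and 4. This was 1 of 59 sets of 4 values examined (37 member genes, both subunit medians and the 20 related genes picked by the naming rule), and chance sets apart about 5%. The other related genes were not among these sets, and TMEM59 of the TOP transcripts had a ratio of 0.884. With normexp and loess RPLP0 had 0.28, -0.47, 0.39 and -0.10 and a ratio of 0.423, below the critical value. With array 2 turned, RPLP0 averages 0.31. The brightest RPLP0 probe had 0.88, -0.49, 0.54 and 0.29 on arrays 1 to 4, so arrays 1, 3 and 4 were less alike by that probe.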

How the results depend on the processing

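In all 13 alternatives limma called 0 of 187 ribosomal protein probes. Both subunit averages stayed positive and moved by less than the SD between arrays in each alternative that changed them; the term for dye and array weights do not enter these averages. When 1 array was left out, they ran from 0.03 to 0.24 (large) and 0.07 to 0.42 (small). Leaving out 1 array gave 1 to 1093 called probes over the whole array (1093 without array 2), 3 member genes negative on all remaining arrays and 1 to 21 positive on all of them (21 without array 2). The matching shares of all tested named genes are not given here, so these counts are not a result about the members. On arrays 1, 3 and 4 the medians of all tested named genes were positive as well (0.27, 0.04 and 0.33). The count of member genes negative on all 4 arrays became 1 with the tested-probe median subtracted, 0 with OXA in Cy5 on all arrays, 1 with array 2 turned and 0 with the brightest probe of each gene. The count positive on all 4 became 1 with the median subtracted and 21 with array 2 turned. Averages of single genes changed sign for 8 of 37 with OXA in Cy5 on all arrays, 5 with array 2 turned, 5 with normexp and loess, 3 with loess alone and 1 to 10 when 1 array was left out (10 without array 1). Each array's ratio sets both groups side by side, so no further pairing or block was fitted. Naming through a gene name column was not run, since the scanner files hold no such column. All member probes were well above background, with processed signals down to 278 (RPS10), and the number of arrays limits the precision.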
